A study of Mus musculus with 3 samples.

Results

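The genes described here encode voltage-gated and potassium-selective ion channels: the 130 protein-coding mouse genes whose symbols begin with Kcn or Cacn, or with Scn followed by a number and a or b. They were taken by symbol from the 21887 protein-coding genes on the numbered, X and Y chromosomes of the RefSeq annotation of GRCm38.p6, leaving out Kcnj11, Kcnq1, Cacna1c and Cacna1d. One member, Kcnrg, encodes a regulator of potassium channels and not a channel. H3K27ac is acetylation of lysine 27 on histone H3, a mark of active promoters and enhancers. ChIP-seq for it was done in MIN6, an insulin-secreting mouse tumour line that stands in for pancreatic beta cells. The cells carried Cas9 and a lentiviral guide RNA against Arid1a, the gene of a BAF (SWI/SNF) chromatin remodeller subunit that binds DNA, and were grown out as single-cell clones. PCR genotyping and Western blotting assigned the clones to wild type, heterozygous knockout or homozygous knockout. H3K27ac does not measure ARID1A, so the genotypes rest on the labels, and the peak names of the wild-type list carry a tag, GAL4, that the labels do not explain. Each genotype is represented by 1 library, and the labels name no clone for it. With 3 libraries in all there is no replicate of any group, no test between genotypes and no p-value, and genotype, clone and library cannot be told apart.

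A beta cell turns glucose into an electrical signal. Metabolism closes ATP-sensitive potassium channels, the membrane depolarises, voltage-gated calcium channels open, and the entering calcium releases insulin, while voltage-gated and calcium-activated potassium channels bring the membrane back. Auxiliary subunits set how many channels reach the membrane and how they gate. The 2-pore-domain channels carry background potassium currents, and G-protein-gated inward rectifiers lower excitability in response to inhibitory receptors.

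The authors' peak lists hold 41490 peaks for wild type, 31365 for the heterozygous and 34298 for the homozygous knockout. The lowest local background recovered from a list's fold and p columns was 2.17 reads per position in wild type and 1.73 in each knockout, 1.25 times as high in wild type as in the heterozygous knockout; read totals are not in the lists. Counts of peaks are therefore read beside the same counts over all genes. All 13 beta cell marker genes examined, Ins1, Ins2 and Pdx1 among them, had a peak in every library. Of 10 neuron markers, 8, 7 and 6 had a peak in wild type, heterozygous and homozygous, against 1 of 7 muscle markers in each. Of 6 alpha and delta cell markers 2 had a peak in each library, and of 5 fibroblast markers 1, 2 and 1 did. The regions at the neuron markers numbered 66, 27 and 42 in that order and their start or gene-end peaks 7, 3 and 4. At the beta cell markers the regions numbered 48, 36 and 47 and the start or gene-end peaks 12, 10 and 11. By regions and by start or gene-end peaks both sets, like the whole lists, were thus highest in wild type and lowest in the heterozygous knockout. By markers with a peak, the neuron set was lowest in the homozygous knockout and the beta cell set did not vary. In proportion, regions at the neuron markers fell by more in each knockout than those at the beta cell markers or the peaks of the whole lists. The part of such markers in the results was not tested. Peak calls give neither the share of cells that carry the mark nor the amount per cell, and these cannot be told apart.

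Promoter sequences are shown first for 8 channels, chosen because they differ in which libraries had a peak within 1 kb of the start or in CpG content. Each is the 200 bases before a transcription start listed by RefSeq for GRCm38.p6, 5′ to 3′ on the gene's own strand, with CpG dinucleotides in capitals. Kcnma1 (BK channel pore; chr14:24004206-24004405, minus strand) and Kcnh5 (Eag2, a voltage-gated potassium pore; chr12:75177333-75177532, minus strand) had a start peak in wild type and the homozygous knockout and none in the heterozygous knockout.
Kcnma1: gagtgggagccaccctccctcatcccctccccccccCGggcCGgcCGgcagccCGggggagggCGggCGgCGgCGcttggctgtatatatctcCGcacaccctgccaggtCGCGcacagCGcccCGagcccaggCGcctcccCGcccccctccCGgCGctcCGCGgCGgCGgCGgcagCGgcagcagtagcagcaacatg
Kcnh5: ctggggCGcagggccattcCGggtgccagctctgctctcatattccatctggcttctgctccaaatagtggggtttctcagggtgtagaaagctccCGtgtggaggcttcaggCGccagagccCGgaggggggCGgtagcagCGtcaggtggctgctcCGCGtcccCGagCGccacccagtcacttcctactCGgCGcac
Kcnk16 (TALK-1, a 2-pore-domain channel abundant in islets; chr14:20269270-20269469, minus strand) and Kcnmb4 (a neuronal BK beta subunit; chr10:116473524-116473723, minus strand) had one in wild type and the heterozygous knockout and none in the homozygous knockout. The pair stand at opposite ends in composition, with 0 and 36 CpG in the 200 bases shown.
Kcnk16: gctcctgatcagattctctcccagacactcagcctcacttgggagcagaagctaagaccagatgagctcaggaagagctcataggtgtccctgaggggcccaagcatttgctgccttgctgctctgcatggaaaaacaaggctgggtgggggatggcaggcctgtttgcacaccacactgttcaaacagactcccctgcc
Kcnmb4: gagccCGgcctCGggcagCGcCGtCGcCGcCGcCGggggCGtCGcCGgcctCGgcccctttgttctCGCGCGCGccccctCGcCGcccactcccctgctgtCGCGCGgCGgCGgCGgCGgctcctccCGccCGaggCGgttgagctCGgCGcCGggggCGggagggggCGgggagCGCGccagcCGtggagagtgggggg
Cacnb3 (a calcium channel beta subunit; chr15:98632128-98632327, plus strand) and Kcnj6 (the G-protein-gated inward rectifier GIRK2; chr16:94997697-94997896, minus strand) had a start peak in every library, with 2 and 23 CpG.
Cacnb3: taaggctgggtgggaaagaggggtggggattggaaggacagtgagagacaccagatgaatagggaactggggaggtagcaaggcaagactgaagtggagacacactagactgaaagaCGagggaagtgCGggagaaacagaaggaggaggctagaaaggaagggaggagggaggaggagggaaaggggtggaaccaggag
Kcnj6: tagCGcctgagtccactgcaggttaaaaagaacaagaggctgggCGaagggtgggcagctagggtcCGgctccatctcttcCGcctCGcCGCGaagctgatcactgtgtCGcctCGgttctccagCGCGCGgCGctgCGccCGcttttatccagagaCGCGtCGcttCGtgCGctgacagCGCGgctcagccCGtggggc
Kcna3 (Kv1.3; chr3:107035962-107036161, plus strand) had 26 CpG and no peak at its start in any library.
Kcna3: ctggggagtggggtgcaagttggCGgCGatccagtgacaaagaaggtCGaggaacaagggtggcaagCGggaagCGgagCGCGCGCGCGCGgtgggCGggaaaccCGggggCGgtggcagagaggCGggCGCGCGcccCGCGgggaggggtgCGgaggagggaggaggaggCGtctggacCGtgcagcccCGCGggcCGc
Kcnh6 (a voltage-gated potassium pore of the Erg type, chr11:106007948-106008147, plus strand) also had none at its start. It is shown with a different feature in capitals, the left part of the element bound by the repressor REST.
Kcnh6: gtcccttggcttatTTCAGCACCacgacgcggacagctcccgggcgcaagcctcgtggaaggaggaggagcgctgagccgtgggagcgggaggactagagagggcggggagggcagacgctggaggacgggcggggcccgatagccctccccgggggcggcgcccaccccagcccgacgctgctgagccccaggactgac

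A peak was counted for a channel when it lay inside the gene or within 10 kb of it. In wild type 92 of the 130 channel genes had at least 1 peak (70.8%, Wilson 95% interval 62.4 to 77.9), beside 66.7% of all protein-coding genes. In the heterozygous knockout 75 did (57.7%, 49.1 to 65.8), beside 62.4%, and in the homozygous knockout 78 did (60.0%, 51.4 to 68.0), beside 63.2%. The intervals cover counting error only, and values given in threes are in the order wild type, heterozygous, homozygous throughout. Thus channels stood near the background in every list, and wild type had the most of them, as it had the most peaks. Channels are long genes, with a median length of 42.6 kb against 17.2 kb for all genes. Per megabase of gene plus flanks, channels held 20.4, 13.4 and 14.8 regions in wild type, heterozygous and homozygous, against 24.3, 17.96 and 20.4 for all genes.

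At the start of the gene, a measure that length does not move, channels were below the background. A peak within 1 kb of a RefSeq-listed transcription start, or of either gene end for the 33 members with no listed start, was present for 48 channels in wild type (36.9%, 29.1 to 45.5), beside 53.3% of all genes. It was present for 37 in the heterozygous knockout (28.5%, 21.4 to 36.7), beside 50.1%, and for 37 in the homozygous knockout (28.5%, 21.4 to 36.7), beside 50.2%. In all 3 libraries 26 channels had a start or gene-end peak, 20% of the 130 beside 47.2% of all genes. These 26 included the pore genes of P/Q-, N- and T-type calcium channels (Cacna1a, Cacna1b, Cacna1g), 3 of the 4 calcium channel beta subunits (Cacnb2, Cacnb3, Cacnb4), and the delayed rectifier Kcnb2. They also included the A-type channel partners Kcnip1, Kcnip3 and Kcnip4, the potassium channels Kcnk1, Kcnk10, Kcnj6 and Kcnh1, and the sodium channel gene Scn8a. Cacna1a, Cacna1g and Kcnb2 have no listed start, so for them the peak may lie at the gene end that is not the start.

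**Figure D1:**
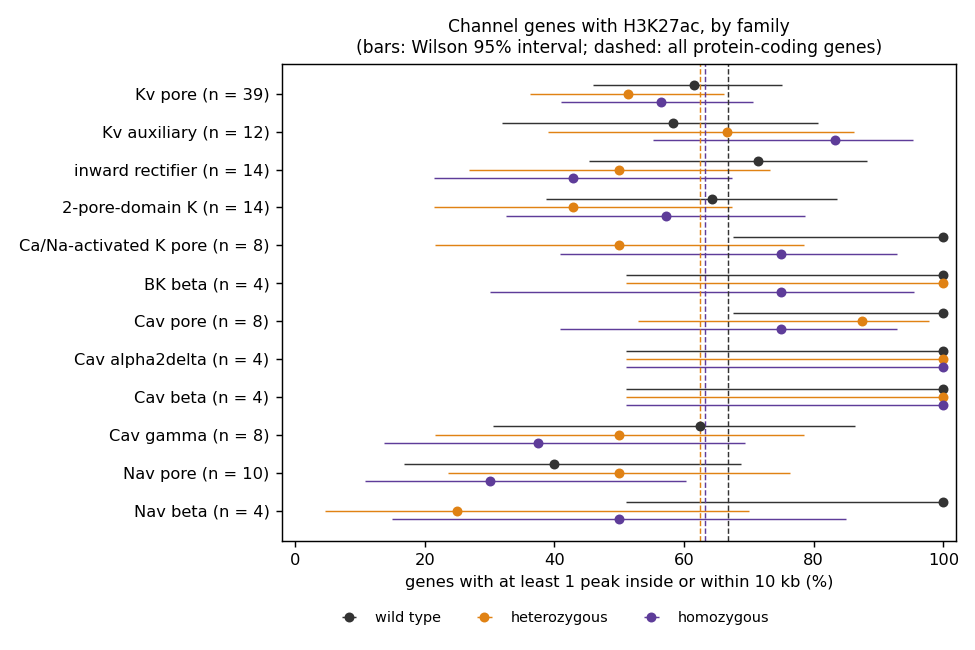
Share of channel genes with at least 1 H3K27ac peak inside the gene or within 10 kb (x axis, percent), by family and library. Points are single libraries, bars are Wilson 95% intervals for counting error, and dashed lines give the share of all protein-coding genes. Calcium channel alpha2delta and beta subunits sit at 100% in every library, while sodium channel pores sit at 40.0%, 50.0% and 30.0% in wild type, heterozygous and homozygous.

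By role, calcium channel pore, alpha2delta and beta subunits were widely marked when any peak in the gene or within 10 kb was counted. All 8 pore genes, all 4 alpha2delta genes and all 4 beta genes had a peak in wild type, and 5, 4 and 4 of them kept at least 1 peak in both knockouts. Several of these genes are long, and of all genes of 100 kb or longer 83.2%, 74.4% and 76.7% had a peak. A start or gene-end peak was present at 3, 3 and 3 of the 8 pore genes. It was present at 2, 2 and 1 of the 4 alpha2delta genes and at 4, 3 and 4 of the 4 beta genes. Of the 8 gamma subunits, which include the AMPA receptor partners known as TARPs, 5, 4 and 3 had a peak, and Cacng1, Cacng3 and Cacng6 had none anywhere. Among the 39 voltage-gated potassium pore genes 24, 20 and 22 had a peak in wild type, heterozygous and homozygous. Within that family 5 of the 8 Shaker-type genes (Kcna1, Kcna3, Kcna4, Kcna5, Kcna6) had no peak in any library, nor did the A-type pore Kcnd2, the silent subunits Kcng1, Kcng2, Kcns1, Kcns2 and Kcnv2, Kcnh7 or Kcnq5. Sodium channel pores had a peak at 4, 5 and 3 of 10 genes, the lowest share of any family in wild type and the homozygous knockout but not in the heterozygous, and Scn1a, Scn2a, Scn7a and Scn10a had none.

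The other potassium families differed in how they spread over the libraries. Voltage-gated auxiliary subunits had a peak at 7, 8 and 10 of 12 genes, more in each knockout than in wild type, while their regions numbered 54, 36 and 47. Inward rectifiers had one at 10, 7 and 6 of 14, and 2-pore-domain channels at 9, 6 and 8 of 14. Pores with Kcnma, Kcnn, Kcnt or Kcnu symbols, grouped by symbol as calcium- or sodium-activated, had one at 8, 4 and 6 of 8. The BK beta subunits had one at 4, 4 and 3 of 4, and the sodium channel beta subunits at 4, 1 and 2 of 4, where Scn2b and Scn4b share a single wild-type peak. Members with none in any library beyond those named were Kcnj2, Kcnj8, Kcnj15, Kcnj16, Kcnk15, Kcnk18, Kcne1l and Kcne3, which brings the unmarked genes to 28, 21.5% of channels beside 30.5% of all genes.

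To compare genotypes, touching or overlapping peaks of the 3 lists were merged into regions. Channels had 513 such regions, 6 of them near more than 1 member and 57 (11.1%) overlapping a gene that is not a channel. A region is called lost from a knockout when wild type has a peak in it and the knockout has none, and gained in the opposite case; a missing peak is one that did not pass the caller's threshold. Both knockouts are set against the same wild-type list, so their losses and gains share it. Only 124 channel regions had a peak in all 3 libraries (24.2%), beside 42.5% of all regions near genes.

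In every pairing the share of channel regions that differed was above that of all regions near genes, a difference that was not tested. From wild type to the homozygous knockout 194 of 368 regions were lost (52.7%, 47.6 to 57.8), beside 34.7% of all regions near genes, and 93 of the 267 homozygous regions were gained (34.8%, 29.4 to 40.7), beside 22.2%. From wild type to the heterozygous knockout 193 of 368 were lost (52.4%, 47.3 to 57.5), beside 38.3%, and 66 of 241 were gained (27.4%, 22.1 to 33.3), beside 16.6%. Between the knockouts 129 of 267 homozygous regions were absent from the heterozygous list (48.3%, 42.4 to 54.3), beside 31.5%. In the other direction 103 of 241 heterozygous regions were absent from the homozygous list (42.7%, 36.65 to 49.05), beside 22.2%.

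The size of the loss depended on the length of the lists, and its distance from the background much less. With each list held to its 31365 strongest peaks, 117 of 256 wild-type channel regions were lost in the homozygous knockout (45.7%, beside 25.8%) and 103 in the heterozygous (40.2%, beside 26.9%). With pile-ups scaled to 1 background, 124 of 263 were lost in the homozygous (47.1%, beside 26.8%) and 120 in the heterozygous (45.6%, beside 30.7%).

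Most varying channel peaks were weak. Reads at a summit are given as recovered and are not scaled between libraries. The wild-type channel peaks whose region had a peak in all 3 libraries reached a median of 74.5 reads at the summit, against 26.0 for those found in wild type alone. In the homozygous list the same medians were 63.0 and 26.0. Summit reads moved with the losses, so regions with like reads at the wild-type summit were compared. These reads include the local background, so peaks of 1 class can differ in fold. The part of the background in the shares below was not tested. Under 25 reads the share lost in the homozygous knockout was 67 of 91 (73.6%) for channels and 74.4% for all regions. At 25 to 49 reads it was 83 of 132 (62.9%, 54.4 to 70.6) against 52.6%, and at 50 to 99 reads 34 of 94 (36.2%, 27.2 to 46.2) against 20.3%. At 100 reads or more it was 10 of 51 (19.6%, 11.02 to 32.46) against 4.48%. For the heterozygous knockout the 4 shares for channels were 81.3%, 63.6%, 29.8% and 13.7%, against 79.6%, 58.2%, 23.6% and 5.04%. For the heterozygous knockout the all-region share lay inside the channel interval in every class but the strongest (6.81 to 25.7), and for the homozygous knockout in the weakest class alone (63.7 to 81.6). The strongest class rested on few genes, and regions of 1 gene are not independent: of the 10 losses at 100 reads or more in the homozygous knockout, 5 were at Kcnj6 and 1 each at Cacnb1 and Kcnh2.

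Start peaks were counted next, gene by gene. Of the 48 channels with a start or gene-end peak in wild type, 15 had none in the homozygous knockout (31.2%) and 17 none in the heterozygous (35.4%), beside 8.04% and 7.99% of all genes. Channel start peaks were weaker, with a median of 49.5 reads at the summit in wild type against 94.0 for all genes. Among those under 50 reads, 13 of 24 channels lost the peak in the homozygous and 13 of 24 in the heterozygous knockout, beside 35.3% and 34.4% of all genes. At 50 to 99 reads 2 of 17 and 3 of 17 channels lost it, beside 3.61% and 3.68%. Of the 7 channels with 100 reads or more, 0 lost it in the homozygous and 1 in the heterozygous knockout, beside 0.416% and 0.643%.

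**Figure D2:**
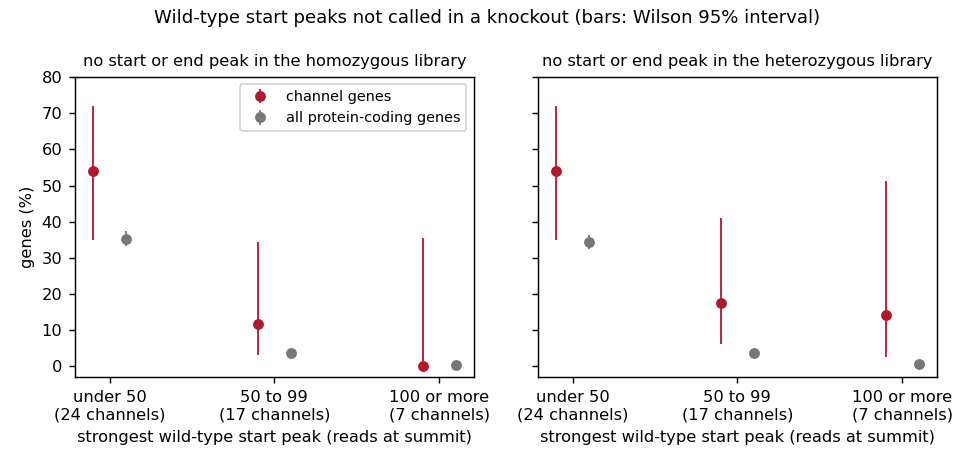
Share of genes with a wild-type start or gene-end peak that had none in the homozygous (left) or heterozygous (right) library, by reads at the strongest wild-type start peak (x axis). Red points are channel genes, grey points all protein-coding genes, and bars are Wilson 95% intervals. Below 50 reads 13 of 24 channel start peaks were not called in either knockout comparison, beside 35.3% and 34.4% of all genes.

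Whole channels appeared and disappeared from the lists. From wild type to the homozygous knockout 22 of 92 channels went from at least 1 peak to none (23.9%, 16.4 to 33.6), beside 7.90% of all genes, and 8 of 78 went the other way (10.3%, 5.29 to 18.95), beside 2.80%. From wild type to the heterozygous knockout the figures were 22 of 92 (23.9%), beside 8.72%, and 5 of 75 (6.67%), beside 2.49%. Between the knockouts 16 of 78 channels of the homozygous list had no peak in the heterozygous list (20.5%), beside 6.11%, and 13 of 75 had the reverse (17.3%), beside 4.96%. Of 23 channels with a single wild-type region, 13 had none in the homozygous knockout (56.5%) and 9 none in the heterozygous (39.1%), beside 16.5% and 18.4% of all genes with a single region. Channels with 5 or more wild-type regions also went to none: 3 of the 130 in the heterozygous knockout and 1 in the homozygous. Of all 21887 genes 83 and 54 did. How many genes had 5 or more wild-type regions is not given here, so these counts are not shares of such genes.

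Absent from the heterozygous knockout alone were 11 channels (8.46%, beside 2.63% of all genes), and the large-conductance calcium-activated potassium channel Kcnma1 led them. Kcnma1 (chr14:23292288-24005110) opens on both voltage and calcium and helps end the action potential. It held 10 wild-type, 0 heterozygous and 15 homozygous regions, covering 7.60 kb, 0 and 9.25 kb of peak. Wild type and the homozygous knockout shared 7 regions, the start among them, where the summit reached 51 reads in wild type and 72 in the homozygous knockout. The strongest site inside the gene had 89 and 175 reads. In the heterozygous list the nearest peaks on the 2 sides of the gene lay 491.1 and 217.2 kb away, and within 1 Mb of the gene that list held 24 peaks against 34 in each of the others.

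Kcnh5 (chr12:74897217-75177332) had the same order, with 4, 0 and 11 regions. Its start peak reached 64 reads in wild type and 60 in the homozygous knockout, and 8 of its 11 homozygous regions had no wild-type peak. Kcng4, a silent subunit that modifies other potassium channels, had 5, 0 and 5 regions, most of them in the flanks and not in the gene, since the gene itself held 1 wild-type region and no homozygous one. Its loss of 5 against wild type came to -3 with equal lists, scaled libraries or the stricter threshold. Only Kcnma1 and Kcng4 of the 130 channels, beside 17 of all 21887 genes, had 5 or more regions in both other libraries and none in the heterozygous.

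Smaller members had the same pattern. The small-conductance calcium-activated channels Kcnn2 and Kcnn3 had 2, 0 and 3 regions and 4, 0 and 2 regions. The silent subunit Kcng3 had 1, 0 and 4, the Kv3 channel Kcnc1 had 2, 0 and 1, and the G-protein-gated rectifier Kcnj3 had 1, 0 and 2. Scn3b, a sodium channel beta subunit, had 1 region at a gene end in wild type (31 reads) and in the homozygous knockout (57 reads) and none in the heterozygous. Kcnk12 had 2, 0 and 1, and the R-type calcium channel Cacna1e had 6, 0 and 1, where the 1 homozygous region was a weak peak of 12 reads outside all 6 wild-type regions.

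**Figure D3:**
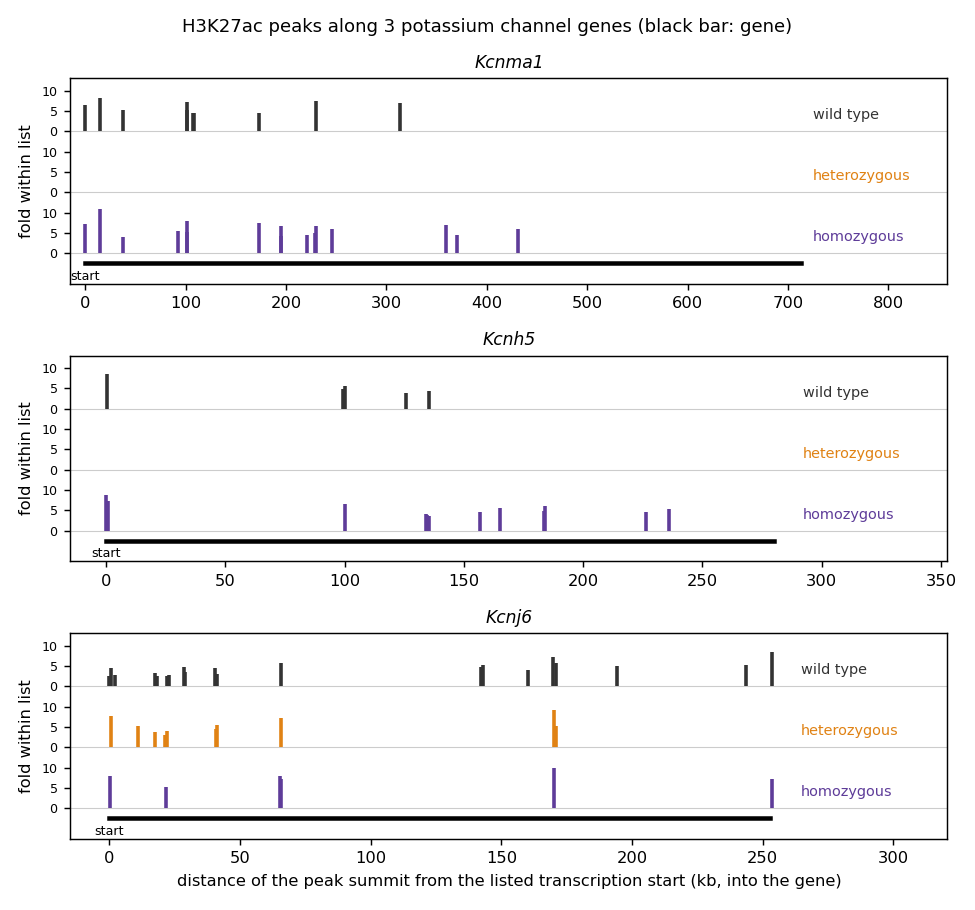
Peak positions in Kcnma1, Kcnh5 and Kcnj6, as distance of each summit from the transcription start in kb (x axis), 1 lane per library. Line height is the authors' fold enrichment, which describes peaks within a list and is not compared between lanes. The heterozygous lanes of Kcnma1 and Kcnh5 are empty, and Kcnj6 has 18, 8 and 5 regions from the top lane to the bottom.

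Absent from the homozygous knockout alone were another 11 channels (8.46%, beside 2.08% of all genes). The T-type calcium channel gene Cacna1h (chr17:25374285-25436334), whose channel opens near resting potential, had 6, 2 and 0 regions. Its highest summit had 91 reads in wild type and 36 in the heterozygous knockout, and no peak was called in the homozygous knockout. It was the 1 of the 130 channels, beside 54 of all 21887 genes, with 5 or more wild-type regions and none in the homozygous knockout. Kcnk16, which carries a background potassium current in beta cells, had 1, 1 and 0 regions, at its start, with 34 and 29 reads at the summit in the libraries that had it. Kcnmb4 had 1, 1 and 0, also at its start, with 42 and 15 reads. The inward rectifiers Kcnj4 and Kcnj5 had 4, 1 and 0 and 1, 1 and 0. Kcnt1, a sodium-activated potassium channel, had 2, 2 and 0, the gamma subunit Cacng8 had 3, 1 and 0, Kcnf1 had 1, 1 and 0, and the sodium channel Scn3a had 1, 2 and 0; Kcnk13 and Cacna1s had 1, 1 and 0 as well.

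Wild type alone had a peak at 11 channels (8.46%, beside 3.19% of all genes). The acid-sensitive 2-pore-domain channel Kcnk3 had 2, 0 and 0 regions, and its gene-end peak reached 77 reads, the strongest of this group's start or gene-end peaks. The inward rectifiers Kcnj12 and Kcnj13 had 4, 0 and 0 and 2, 0 and 0, the sodium-activated channel Kcnt2 and the gamma subunit Cacng5 2, 0 and 0 each. The rest, among them Kcnk2, Kcns3, Kcnv1, Scn2b and Scn4b, had a single wild-type region each. Fewer channels had peaks in knockouts alone: Kcnab1, Kcne1, Kcnk5, Kcnk7 and Kcnk9 in the homozygous, Kcnh8 and Scn11a in the heterozygous, and Kcna10, Kcne4 and Scn4a in both. These are 3.85%, 1.54% and 2.31% of channels, beside 1.23%, 1.01% and 0.539% of all genes. None of these 10 reached more than 34 reads at a summit.

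Among channels with peaks in every library, the heaviest loss was at Kcnj6 (chr16:94744980-94997696), whose product lowers excitability in response to inhibitory receptors. Its 18 wild-type regions stood against 8 heterozygous and 5 homozygous ones, covering 13.9, 6.79 and 5.04 kb. The start peak was called in each, at 165, 83 and 27 reads. The local background at its peaks reached 42.2, 15.4 and 9.74 reads in the same order, so the expected count there was also highest in wild type, and its part in the difference was not tested. Under every alternative run Kcnj6 had fewer regions in each knockout than in wild type, though the heterozygous difference of -10 came to -6 with lists of equal length and with the stricter threshold, a −log10 q of at least 10.

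The delayed rectifier Kcnb2, a voltage-gated potassium pore that repolarises the membrane, had 5, 3 and 2 regions, with 77, 49 and 46 reads at its highest summit. The T-type channel Cacna1g had 8, 1 and 2 regions, and its strongest gene-end peak had 92, 46 and 43 reads. At the low-coordinate end of the gene the region had a peak in every library, but at the other end in wild type alone. The BK beta subunit Kcnmb2 had 12, 6 and 6, and its heterozygous difference of -6 came to -3 with lists of equal length. The Erg channels Kcnh6 and Kcnh2 had 11, 6 and 5 and 5, 6 and 4. For Kcnh6 the heterozygous difference of -5 from wild type came to -1 with lists of equal length, and the homozygous difference of -6 came to -2. With no window, and with scaled libraries, both came to -3. Cacna2d2, an alpha2delta subunit that raises calcium channel density, had 5, 1 and 1 with its start peak in wild type alone. N-type Cacna1b had 3, 1 and 1.

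Other channels had more regions in a knockout. The beta subunit Cacnb2, which traffics calcium channels to the membrane, had 2, 9 and 7 regions, and only 1 region was shared by all. With the stricter threshold its excess over wild type came to 2 in each knockout, from 7 and 5, and with scaled libraries the heterozygous excess came to 4. P/Q-type Cacna1a had 6, 8 and 11, with a gene-end peak in each, and its homozygous excess of 5 came to 3 with the stricter threshold. The ether-a-go-go channel Kcnh1 had 9, 6 and 13, and the excess of 7 between the knockouts came to 3 with lists of equal length and to 2 with the stricter threshold or scaled libraries. The M-current gene Kcnq3 had 2, 6 and 2. Of the A-type channel partners, Kcnip1 had 17, 12 and 17 regions and Kcnip4 12, 6 and 10, and only 6 and 3 of these were common to the 3 libraries. With lists of equal length the heterozygous differences from wild type came to 0 for Kcnip1, from -5, and to -1 for Kcnip4, from -6. Cacna2d3 (10, 12 and 4) and Cacng2 (9, 10 and 3) were low in the homozygous knockout, and for both the difference from wild type went to 0 with lists of equal length.

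**Figure D4:**
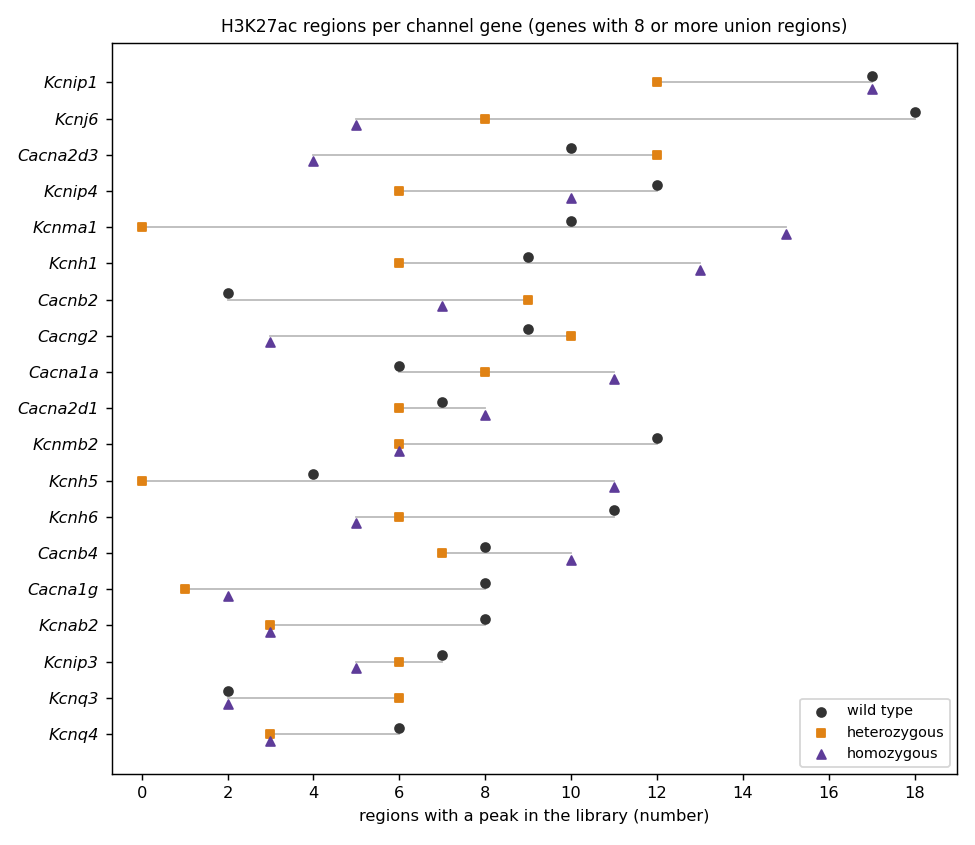
Number of regions with a peak in each library (x axis) for the 19 channel genes with 8 or more regions in all. Circles are wild type, squares the heterozygous and triangles the homozygous knockout, 1 library each. Kcnma1 runs from 0 in the heterozygous to 15 in the homozygous knockout, and Kcnj6 from 5 in the homozygous to 18 in wild type.

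Over all members, 60 of the 100 channels with a region in either library had fewer regions in the homozygous knockout than in wild type and 20 had more, shares of 60% and 20% beside 35.4% and 17.2% of all genes. In the heterozygous knockout 58 of 97 had fewer and 15 more (59.8% and 15.5%, beside 41.2% and 11.1%). Between the knockouts 34 of 91 had fewer in the homozygous and 30 more (37.4% and 33.0%, beside 18.3% and 31.0%). Thus the channels lay below wild type in both knockouts and had no common direction between the knockouts. Among the 31 members listed for their part in beta cell electrophysiology, 30, 23 and 25 had a peak in the 3 libraries in the same order. These were 96.8%, 74.2% and 80.6%, beside the 66.7%, 62.4% and 63.2% of all genes. That measure rises with gene length, and of all genes of 100 kb or longer 83.2%, 74.4% and 76.7% had a peak. A start or gene-end peak was present for 21, 15 and 16 of the 31, beside 53.3%, 50.1% and 50.2% of all genes. Of the 30 listed members with a region in either library, 22 had fewer in the homozygous knockout than in wild type and 5 more (73.3% and 16.7%). In the heterozygous knockout 20 had fewer and 4 more (66.7% and 13.3%). The shares of all genes with fewer and more regions are those given above. The silent subunit Kcng2 was the 1 of them without a peak in any library.

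Peaks near a channel are not always at the channel. In wild type the 4 highest-fold peaks near any member lay in the flanks of Kcnn1 and Kcnj14, within 1 kb of the starts of Arrdc2, Ccdc124, Grwd1 and Cyth2. Of 383 wild-type channel peaks 51 lay within 1 kb of another gene's start, and 43 of those (84.3%) were in regions found in all 3 libraries. Of the other 332, 91 were (27.4%). In the homozygous list the shares were 42 of 44 (95.5%) and 90 of 238 (37.8%), and in the heterozygous list 44 of 51 (86.3%) and 92 of 205 (44.9%). Inside channel genes, away from the start, 50 of 230 wild-type peaks (21.7%) were in regions common to all libraries. At a start or gene end 32 of 67 were (47.8%), and in the flanks 52 of 86 (60.5%). No share by place is given here for all genes, so these values describe channels without setting them apart from other genes.

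The channels that looked the most stable were partly of this kind. In 11 members every region had a peak in all 3 libraries, among them Cacng7, Kcnk1, Kcnk4, Kcnmb3, Kcnn4, Kcnj10, Kcne2, Kcnd1, Kcnh3 and Kcnrg. Kcnk4 had 5 regions in each library, none at its own start, and they lay over the neighbours Esrra, Catsperz, Bad and Gpr137. The A-type channel Kcnd1 had 4 in each, all in its flanks, the start of Otud5 among them. By contrast Kcnk1 (TWIK-1) had 1 region, at its own start. With peaks over other genes left out, 87, 69 and 70 of the 130 channels had a peak in wild type, heterozygous and homozygous. Kcnk4, Kcnd1, Kcnk1 and the other members outside the naming rule were picked out after their values were seen.

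Channel promoters with a peak were richer in CpG, as promoters with a peak were in general. RefSeq promoters of 300 bases matched 97 of the 130 members, 130 promoters in all. Those with a peak within 1 kb in no library (n = 82) held a median of 8 CpG, those with a peak in 1 or 2 libraries (n = 29) held 12, and those with a peak in all 3 (n = 19) held 25. The medians over all promoters were 4, 14 and 23. The ranges overlapped widely: the unmarked channel promoters ran from 0 to 37 CpG and those marked in all 3 libraries from 4 to 42. Kcna3 is an unmarked promoter rich in CpG, and the Cacnb3 promoter shown above is a marked one poor in CpG (7 in 300 bases). The other listed Cacnb3 promoter, also marked in every library, held 29.

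**Figure D5:**
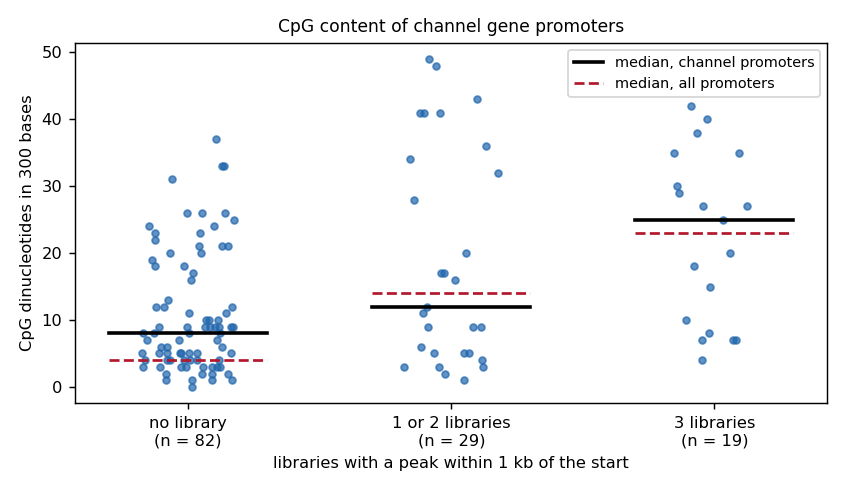
CpG dinucleotides in 300 bases around each listed start of a channel gene (y axis), by the number of libraries with a peak within 1 kb (x axis). Points are promoters, black bars their medians (8, 12 and 25), and dashed red lines the medians over all promoters (4, 14 and 23).

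Short motifs were rare in these promoters. On either strand the AP-1 motif TGANTCA was in 5 of the 130 channel promoters (3.85%), beside 6.99% of all promoters of that length. The cAMP response element TGACGTCA was in 0, beside 2.23%, and TTCAGCACC, the left part of the REST element, was in the Kcnh6 promoter alone (0.769%), beside 0.414%. These matches describe letters and not binding.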

How the data were processed

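The 3 H3K27ac ChIP-seq libraries of MIN6 cells, 1 per Arid1a genotype, were analysed from the narrowPeak lists that the authors deposited. Per the submitters' processing notes the authors used bcl2fastq, MACS2 and genome build mm10; nothing in the sources used here gives versions, aligner, control or threshold. Each list holds, as deposited by the authors, a peak's position, a score, its fold (a ratio of pile-up to background), and the −log10 p and −log10 q of the call. Fold described peaks within a list and was not compared between lists. Summit pile-up and local background were recovered from fold and −log10 p under a Poisson upper tail, to a tolerance of 0.001, for 41489, 31363 and 34297 peaks (wild type, heterozygous, homozygous).

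Genes came from the RefSeq table of GRCm38.p6, the assembly of mm10, and 97 of 130 members had a listed promoter; no genome was used. Peaks inside a gene or within 10 kb counted for it. Overlapping or touching peaks were merged into regions (checked against bedtools 2.31.1); Python 3.11.15, pandas 2.3.3, numpy 2.4.6 and scipy 1.17.1 did the rest, and the counting was tested on simulated data. Intervals on shares are Wilson 95% and cover counting error alone. The named genes are the 10 members with most regions, the 5 with most gained and most lost regions in each pairing, all whose start or gene-end peak varies, those with 2 or more peaks that are absent from at least 1 library, the 3 highest-fold peaks of each list, and a list of 32 beta cell channels, of which Kcnk17 is not in the table. Some members that the rule names are counted but not reported by name here. Members and lists were chosen with earlier results of these data known. Alternatives changed the window, threshold, list length, overlap, distance to the start, and neighbouring genes; libraries scaled to 1 background and gene ends for every gene were added after seeing the data.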

Additional observations from a re-analysis of the deposited data

How the results depend on the processing

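No replicate could be left out, since each genotype had 1 library, and the read depth behind a missing peak is unknown. No paired analysis was possible because no genotype has a replicate and no result comes from a test. Of 120 recomputed channel counts, 108 stayed within 1.5 times the reported value and 12 did not. Regions lost in the homozygous knockout (194) came to 117 with lists of equal length and 124 with libraries scaled to 1 background; those lost in the heterozygous knockout (193) came to 103 and 120. With a −log10 q of at least 10, regions gained in the heterozygous knockout against wild type came to 40 (from 66), regions of the heterozygous list lost in the homozygous to 59 (from 103), whole channels lost in that pairing to 8 (from 13), and channels gained in the heterozygous knockout to 3 (from 5). Channels gained in the heterozygous knockout came to 9 with lists of equal length and 2 with no window. Channels gained in the homozygous knockout (8) came to 5 with no window and 5 with a window of 25 kb. In each case the value was lower or higher than reported and the cause was not tested. Of 174 recomputed region differences for single channels, 38 moved by over 1.5 times and none changed sign; those of Cacna2d3 and Cacng2 (homozygous against wild type), Kcnip1 (heterozygous against wild type) and Kcng4 (between knockouts) came to 0 under at least 1 alternative.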

Other observations

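Genes of electrical excitability outside the channel symbols were examined from a list of 50: pumps, exchangers, intracellular calcium release channels, other cation and anion channels, and scaffold or auxiliary proteins. Of these, 43, 43 and 44 had a peak in wild type, heterozygous and homozygous, or 86%, 86% and 88%. The shares of all genes were 66.7%, 62.4% and 63.2%. A start or gene-end peak was present for 35, 31 and 32 of the 50, beside 53.3%, 50.1% and 50.2% of all genes. Of the 46 with a region in wild type or the homozygous knockout, 27 had fewer in the homozygous knockout and 11 more. These were 58.7% and 23.9%, beside 35.4% and 17.2% of all genes. For the heterozygous knockout 28 of 45 had fewer than wild type and 7 more (62.2% and 15.6%), beside 41.2% and 11.1%. Abcc8, the sulfonylurea receptor that pairs with Kcnj11 in the ATP-sensitive channel, had 12, 10 and 16 regions, with a start peak in each.

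Dpp6 and Dpp10, auxiliary subunits of A-type potassium channels whose symbols fall outside the Kcn names, had 16, 1 and 5 regions and 8, 0 and 3 regions in the same order. The sodium-calcium exchanger Slc8a1 had 10, 8 and 0 regions, and the cardiac ryanodine receptor Ryr2 had 0, 0 and 4. These 4 genes were picked out after their values were seen. Among the channels left out of the member list, Kcnj11 had 2 regions in each library, Kcnq1 had 3, 6 and 4, and the L-type calcium channel genes Cacna1c and Cacna1d had 23, 15 and 17 and 13, 11 and 6.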
